A study of Mus musculus with 60 samples.

Results

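Brown adipose tissue (BAT) of mice given PC61, an antibody against CD25, was compared with BAT of mice given an isotype control antibody. The libraries were chosen by their labels, which name BAT and either treatment, and they are 6 of the 60 RNA-seq libraries of the series, 3 per group. All 6 came from whole tissue of wild-type C57BL/6J males aged 8 weeks. The antibody dose and the time from injection to collection are not stated in the labels. For comparison, BAT from 8-week-old B6.Foxp3.DTR males was used. In these, DTR+ animals carry the diphtheria toxin receptor in Foxp3-expressing cells, DTR- animals do not, and both genotypes are labelled as given the toxin (DT). The groups titled D4 had 4 libraries per genotype, 8 in all. Those titled D3, whose titles also carry the word PBS, had 3 per genotype, 6 in all. Whether D3 and D4 are days is not stated.

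CD25 is the alpha chain of the interleukin-2 receptor. Regulatory T (Treg) cells, the CD4 T cells defined by the transcription factor Foxp3, carry it at a high level, and activated T cells and some innate lymphoid cells carry it too. BAT produces heat through the uncoupling protein UCP1 and both stores and synthesizes lipid. The genes of cholesterol synthesis are classical targets of the SREBP transcription factors, which are kept inactive in the endoplasmic reticulum when sterol is plentiful.

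The 6 libraries held 5336788 to 6278818 counts each. Ucp1 (4017 to 12520 CPM, counts scaled to the library total) and the adipocyte gene Adipoq (6483 to 9613 counts) were present in all 6, and the brown lineage factor Zic1 had 2 to 8 counts per library. Foxp3 had 0 counts in every library, which allows at most 0.531 CPM (3 counts, counting error only). Il2ra, which encodes CD25, had 3, 0 and 1 counts in the isotype libraries and 3, 10 and 13 in the PC61 libraries, too few to be tested. A change in Treg cells could not be measured at this depth. Skeletal muscle transcripts stood apart in some libraries, at a summed 2924, 184 and 185 CPM over 32 genes with isotype and 491, 11830 and 1166 CPM with PC61. The most abundant, Acta1, made up 20.7% of that sum. PC61 replicate 2 and isotype replicate 1 were the highest in their groups, and the groups overlapped. Nothing in the labels ties each replicate to its own animal, so a p-value here reflects spread among these libraries only, part of which may be technical. In whole tissue, fewer cells of a type and less RNA per cell cannot be told apart.

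More genes were called lower than higher after PC61, and those called lower included enzymes of cholesterol, fatty acid and glycerolipid synthesis. Of 11513 genes tested, 75 passed an adjusted p of 0.05 in edgeR's quasi-likelihood test with Benjamini-Hochberg adjustment (0.651%), 19 higher (0.165%) and 56 lower (0.486%). In all 75 the PC61 and isotype ranges did not overlap. At an unadjusted p under 0.05, 569 were higher (4.94%) and 678 lower (5.89%), and the median log2 fold change over all genes was 0.02. Of all genes tested, 47.3% had a log2 fold change below 0. The PC61 range lay above the isotype range in 7.83% of genes and below it in 8.38%. No muscle list gene passed, and the muscle list had a median log2 fold change of 2.12 over 29 tested members. With the muscle genes removed 81 genes passed, all 75 among them. With a muscle score as covariate 159 passed, 50 higher and 109 lower, with 61 of the 75 among them. With PC61 replicate 2 left out 83 passed, 33 higher and 50 lower. With isotype replicate 1 left out as well 176 passed, 79 higher and 97 lower, with 58 of the 75 among them.

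The count of 75 depended on single libraries. It was 11 without PC61 replicate 1, 29 without isotype replicate 2, 29 without isotype replicate 3 and 49 without PC61 replicate 3. With each library left out in turn, 11 genes were called in all 6 fits, among them Sc5d, Cyp51, Agpat2, Acot11, Hephl1, Sbk1, Slc25a32, Slc1a3, Hcar2 and Ivns1abp. A fit over all whole-tissue BAT groups at once called 7 genes. Of the 75 it kept 6, among them Lpin1, Sbk1, Hcar2, Dhx32 and Mrps2, each at an adjusted p of 0.044, and lost calls such as Sc5d (0.112), Cyp51 (0.0567), Agpat2 (0.111) and Slc1a3 (0.0567). Dhx32 overlaps Bccip on the other strand, with 2524 and 2079 counts over the 6 libraries. All 75 kept their direction in every alternative run. As their group ranges did not overlap, leaving out libraries could hardly reverse a direction, so this adds little.

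**Figure D1:**
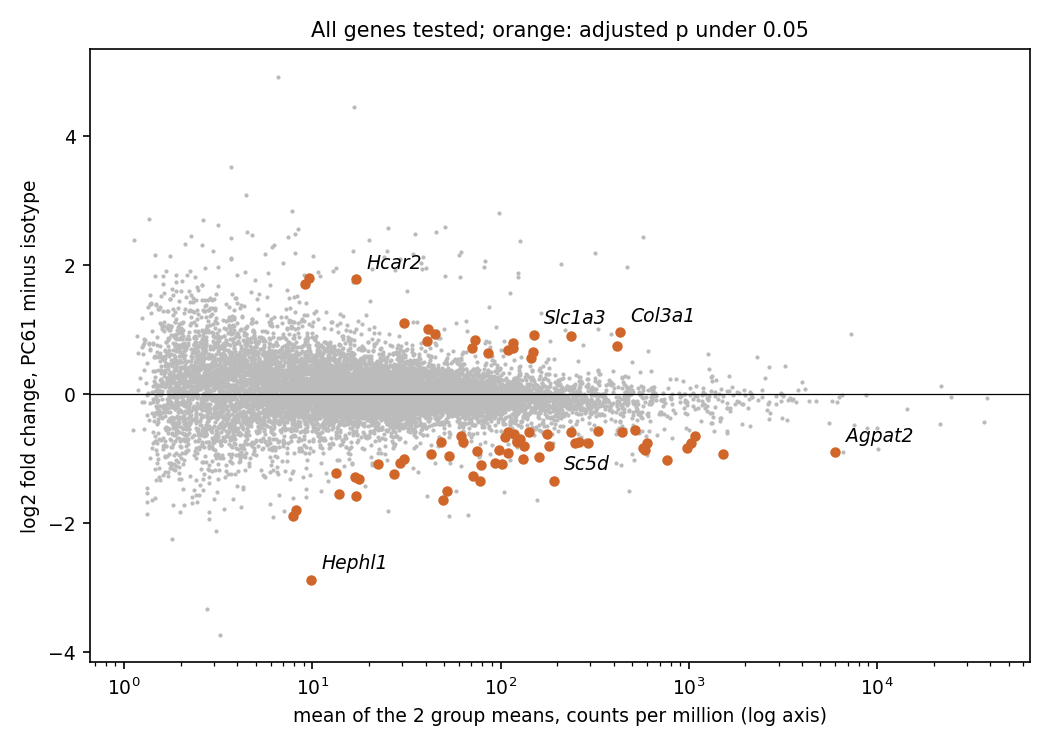
Log2 fold change of PC61 over isotype (vertical axis) against the mean level in CPM (horizontal log axis) for the 11513 genes tested, with the 75 genes past an adjusted p of 0.05 in orange. Of these, 56 lie below 0 and 19 above.

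Genes of cholesterol synthesis and its regulation were lower after PC61. Of 27 members tested, 6 fell and 0 rose at the adjusted threshold, against 0.486% and 0.165% of all genes. With no adjustment 16 were lower and 0 higher, against 5.89% of all genes lower. In 14 the PC61 range lay below the isotype range, against 8.38% of all genes. The median log2 fold change was -0.56, with 24 members below 0, against 0.02 over all genes. The list was drawn up with earlier results of these data known, and Sc5d was named with the comparison itself.

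Sc5d (chromosome 9, 42251595 to 42264256) encodes sterol C5-desaturase, a late enzyme of the pathway. Its level was 273, 292 and 260 CPM in the isotype libraries and 97.7, 114 and 113 CPM in the PC61 libraries. Each PC61 library was below the lowest isotype library by a wide margin. Sc5d fell by 1.34 ± 0.12 on the log2 scale (SE, n = 3 and 3, edgeR adjusted p = 0.000151).

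Cyp51 (chromosome 5, 4081145 to 4104746), the lanosterol demethylase, was at 107, 109 and 105 CPM with isotype and at 50.6, 46.9 and 52.1 CPM with PC61. Libraries within a group lay close together, and the groups were far apart. Cyp51 fell by 1.10 ± 0.12 (adjusted p = 0.00126). Akap9 overlaps it on the other strand and the strand setting of the counting is not given. Akap9 itself had 2238 counts over the 6 libraries against 2764 for Cyp51 and a log2 fold change of 0.18 ± 0.13 (adjusted p = 0.686).

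Sqle (chromosome 15, 59315077 to 59331192), squalene epoxidase, was at 63.4, 70 and 97.5 CPM with isotype and at 20.5, 24.7 and 36.2 CPM with PC61. No PC61 library reached the isotype range. Sqle fell by 1.503 ± 0.22 (adjusted p = 0.00824). Nsdhl (chromosome X, 72918557 to 72958514), a sterol dehydrogenase, was at 121, 135 and 125 CPM against 53.9, 74.7 and 79.8 CPM and fell by 0.87 ± 0.15 (adjusted p = 0.0153). Another called member was Lpin1, a phosphatidate phosphatase that SREBP also regulates, described with glycerolipid synthesis. Without PC61 replicate 1 the adjusted p was 0.0725 for Sqle, 0.0925 for Nsdhl and 0.0603 for Lpin1, so that 3 members remained called. Nsdhl also lost its call without isotype replicate 2 (0.0832) or 3 (0.0674).

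Other enzymes of the pathway were lower without passing the adjusted threshold. Hmgcs1, the cytosolic HMG-CoA synthase, stood at 494 ± 80.4 CPM (SD, n = 3) with isotype and 335 ± 15.2 CPM with PC61, a log2 fold change of -0.56 ± 0.12 (adjusted p = 0.0608). Mvd, mevalonate decarboxylase, was at 28.4 ± 7.08 against 13.2 ± 2.84 CPM (-1.10 ± 0.25, adjusted p = 0.0608). Fdps, farnesyl diphosphate synthase, was at 30.2 ± 2.38 against 16.0 ± 4.43 CPM (-0.91 ± 0.22, adjusted p = 0.0909). The spread of each group was smaller than the difference of the means for these enzymes. Srebf2, the SREBP gene of this pathway, had a log2 fold change of -0.02 (adjusted p = 0.981).

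Promoters of the sterol genes are shown because members of the list moved together. RefSeq promoter windows of 300 bases (250 before to 50 after the start site, GRCm38.p6) were matched for 20 of the 28 list genes. The word CCAAT, bound by NF-Y, a partner of SREBP, was searched on both strands, as was TCACNCCAC, a form of the sterol regulatory element. These words do not overlap in the windows printed. The 20 genes have 26 windows, of which 17 held CCAAT (65.4%), against 37.4% of all 32851 windows. TCACNCCAC was in 1 of the 26 (3.85%), that of Hmgcs1, against 1.24% of all windows. Of the called genes matched, Sc5d, Cyp51 and Nsdhl held CCAAT and Lpin1 held neither word. Capitals mark the words, and ATTGG is CCAAT read on the other strand. These matches describe letters in a window. The windows are Sc5d at chr9:42264251-42264550 (minus strand), Cyp51 at chr5:4104648-4104947 (minus strand), Nsdhl at chrX:72918271-72918570 (plus strand) and Hmgcs1 at chr13:119690101-119690400 (plus strand).
Sc5d: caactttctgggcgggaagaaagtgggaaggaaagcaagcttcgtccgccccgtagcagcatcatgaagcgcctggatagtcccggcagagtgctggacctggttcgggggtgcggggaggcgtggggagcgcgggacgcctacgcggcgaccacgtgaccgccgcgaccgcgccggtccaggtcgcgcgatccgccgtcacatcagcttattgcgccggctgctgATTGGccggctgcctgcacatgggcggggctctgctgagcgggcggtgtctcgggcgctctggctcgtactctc
Cyp51: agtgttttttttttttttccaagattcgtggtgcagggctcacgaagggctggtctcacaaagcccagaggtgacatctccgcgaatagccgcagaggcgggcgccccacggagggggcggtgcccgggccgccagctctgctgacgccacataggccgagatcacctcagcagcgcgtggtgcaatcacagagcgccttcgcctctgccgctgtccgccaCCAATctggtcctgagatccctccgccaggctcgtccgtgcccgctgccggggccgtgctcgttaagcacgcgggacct
Nsdhl: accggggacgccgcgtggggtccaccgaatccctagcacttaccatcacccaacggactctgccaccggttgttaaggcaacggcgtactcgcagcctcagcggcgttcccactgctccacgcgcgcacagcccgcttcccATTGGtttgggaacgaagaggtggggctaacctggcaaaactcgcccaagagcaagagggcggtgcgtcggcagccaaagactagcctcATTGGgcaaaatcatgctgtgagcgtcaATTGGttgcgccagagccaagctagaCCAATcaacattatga
Hmgcs1: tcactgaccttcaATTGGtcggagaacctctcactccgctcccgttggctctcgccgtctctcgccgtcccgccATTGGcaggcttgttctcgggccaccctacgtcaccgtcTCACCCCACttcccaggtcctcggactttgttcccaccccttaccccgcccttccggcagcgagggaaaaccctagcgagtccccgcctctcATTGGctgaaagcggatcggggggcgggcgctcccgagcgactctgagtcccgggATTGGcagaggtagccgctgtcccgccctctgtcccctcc

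**Figure D2:**
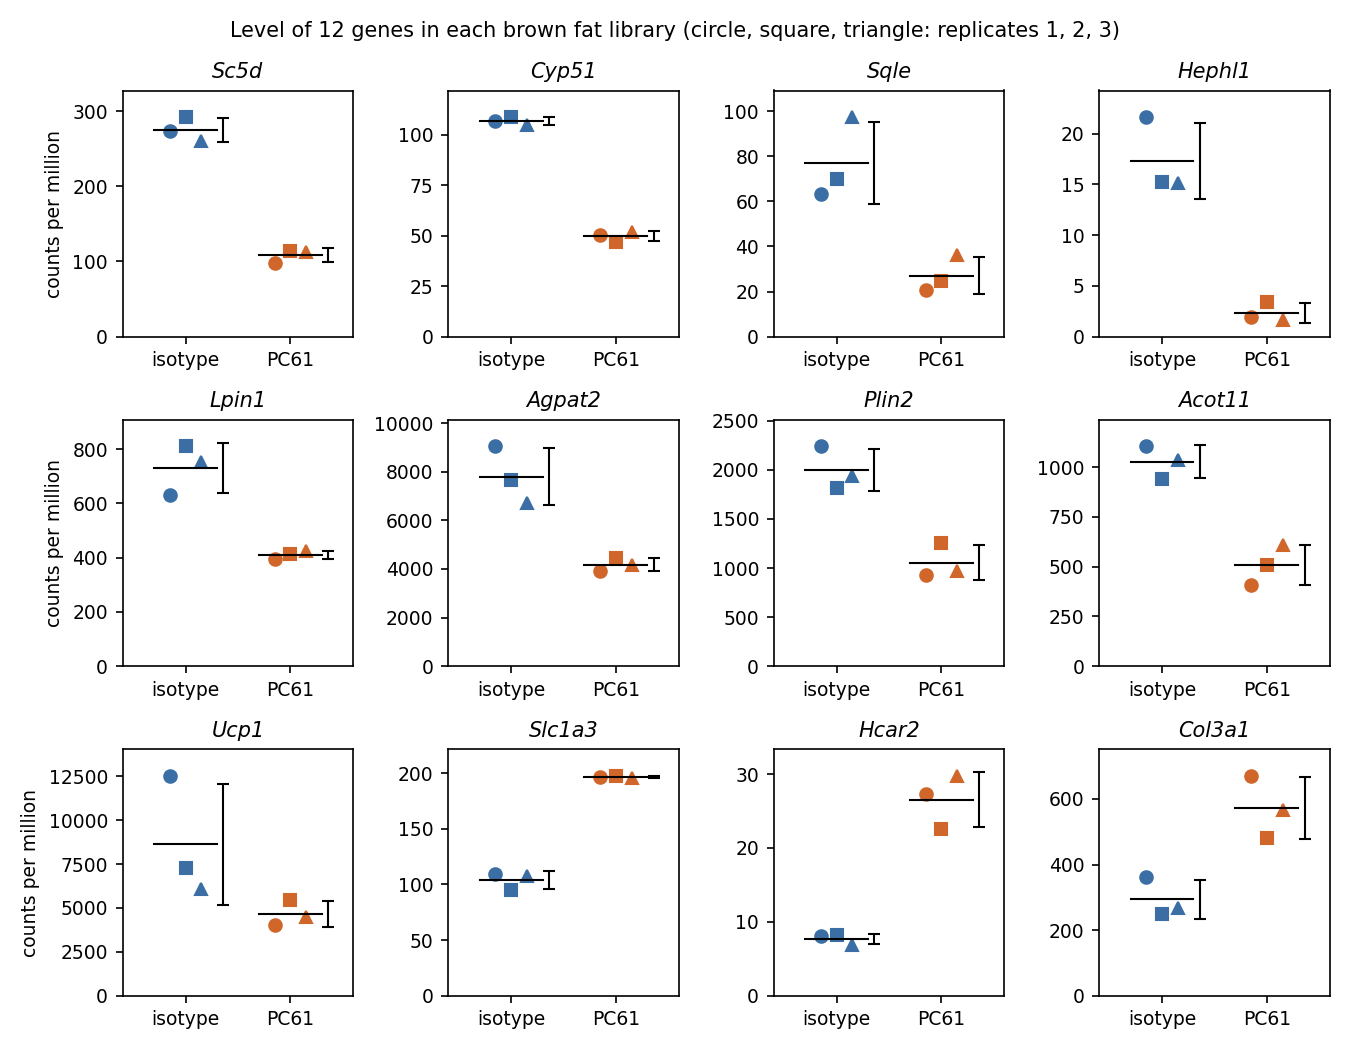
Level of 12 genes in CPM (vertical axes, from 0) in the 3 isotype (blue) and 3 PC61 (orange) libraries, with the group mean (line) and SD (bar). The groups are apart in all 12 panels. All but Ucp1 are among the 75 called genes, none of which overlapped, so their separation follows from the choice. For Ucp1 isotype replicate 1 lies far above the other isotype libraries.

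Glycerolipid synthesis followed with 2 of 20 members lower (0.486% of all genes) and 0 higher, and a median log2 fold change of -0.25. Agpat2 (chromosome 2, 26593057 to 26604417) encodes the acyltransferase that makes phosphatidic acid and is needed for fat storage in adipocytes. It stood at 9043, 7649 and 6713 CPM with isotype and at 3929, 4464 and 4151 CPM with PC61. The PC61 libraries lay close together, well under the isotype range. Agpat2 fell by 0.90 ± 0.11 (adjusted p = 0.00226). Egfl7 overlaps it on the other strand with 4380 counts over the 6 libraries, against 211774 for Agpat2.

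Lpin1 (chromosome 12, 16535669 to 16610966), which acts in the next step, was at 631, 810 and 752 CPM with isotype and at 394, 414 and 423 CPM with PC61. It fell by 0.83 ± 0.12 (adjusted p = 0.00301). Plin2 (chromosome 4, 86648386 to 86670060), a lipid droplet coat protein, was at 2239, 1816 and 1938 CPM against 931, 1258 and 972 CPM and fell by 0.92 ± 0.13 (adjusted p = 0.00305). For both, the ranges stayed apart. Plin2 was the single called gene of 17 lipolysis and lipid droplet genes tested, against 0.486% of all genes called lower. Without PC61 replicate 1 the adjusted p was 0.0603 for Lpin1 and 0.0645 for Plin2. Gpd1, which makes glycerol 3-phosphate, had a log2 fold change of -0.52 ± 0.12 (adjusted p = 0.0705), from 11740 ± 1354 to 8162 ± 1214 CPM.

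De novo fatty acid synthesis had 3 of 24 members lower and 0 higher, against 0.486% of all genes called lower. With no adjustment 15 were lower and 0 higher, against 5.89% and 4.94% of all genes. In 14 the PC61 range lay below the isotype range, against 8.38% of all genes, and the median was -0.48. The 3 were Pgd, which supplies NADPH in the pentose phosphate pathway, the elongase Elovl6 and Mlxipl, which encodes the carbohydrate-responsive factor ChREBP. Pgd was at 1180, 1227 and 1344 CPM with isotype and at 546, 849 and 696 CPM with PC61, and fell by 0.84 ± 0.14 (adjusted p = 0.0153). Elovl6 was at 1424, 1233 and 1322 CPM against 740, 821 and 975 CPM and fell by 0.65 ± 0.12 (adjusted p = 0.0214). Mlxipl was at 295, 339 and 351 CPM against 171, 176 and 239 CPM and fell by 0.75 ± 0.14 (adjusted p = 0.0252). PC61 replicate 1 was the lowest library for each.

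Other enzymes of this pathway had lower means with PC61 and missed the threshold. Acly, ATP citrate lyase, was at 13020 ± 2137 CPM with isotype and 7207 ± 1563 CPM with PC61 (-0.85 ± 0.18, adjusted p = 0.0896). Fasn, fatty acid synthase, was at 25010 ± 2998 against 18110 ± 2042 CPM (-0.47 ± 0.11, adjusted p = 0.0753). Thrsp, a lipogenic cofactor, was at 10390 ± 1271 against 7230 ± 1213 CPM (-0.52 ± 0.13, adjusted p = 0.0884). The 3 calls of this pathway rested on single libraries: their number was 0 without isotype replicate 2, isotype replicate 3 or PC61 replicate 1, 1 without PC61 replicate 2, 6 without PC61 replicate 3 and 8 without isotype replicate 1. The highest adjusted p values, without PC61 replicate 1, were 0.161 for Elovl6 and 0.21 for Mlxipl, and for Pgd the highest was 0.0837, without isotype replicate 3.

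Genes of glucose and glycogen use had 1 of 28 members lower at the adjusted threshold, against 0.486% of all genes, and a median of -0.36. With no adjustment 18 were lower and 2 higher, against 5.89% and 4.94% of all genes. In 17 the PC61 range lay below the isotype range, against 8.38% of all genes. Pfkp, a phosphofructokinase of glycolysis, was at 316, 260 and 276 CPM with isotype and 171, 211 and 185 CPM with PC61. It fell by 0.59 ± 0.12 (adjusted p = 0.0478), a call that was kept only without PC61 replicate 2 (adjusted p = 0.0452) among the fits with a library left out, with 0.289 as the highest. Pitrm1 overlaps Pfkp on the other strand with 2337 counts over the 6 libraries against 8397. Hk2, hexokinase 2, was at 654 ± 54 against 345 ± 104.5 CPM (-0.92 ± 0.19, adjusted p = 0.0608). In the other direction, Irs1, the insulin receptor substrate, was at 17.5 ± 5.07 against 33.4 ± 1.92 CPM (0.94 ± 0.22, adjusted p = 0.0746).

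**Figure D3:**
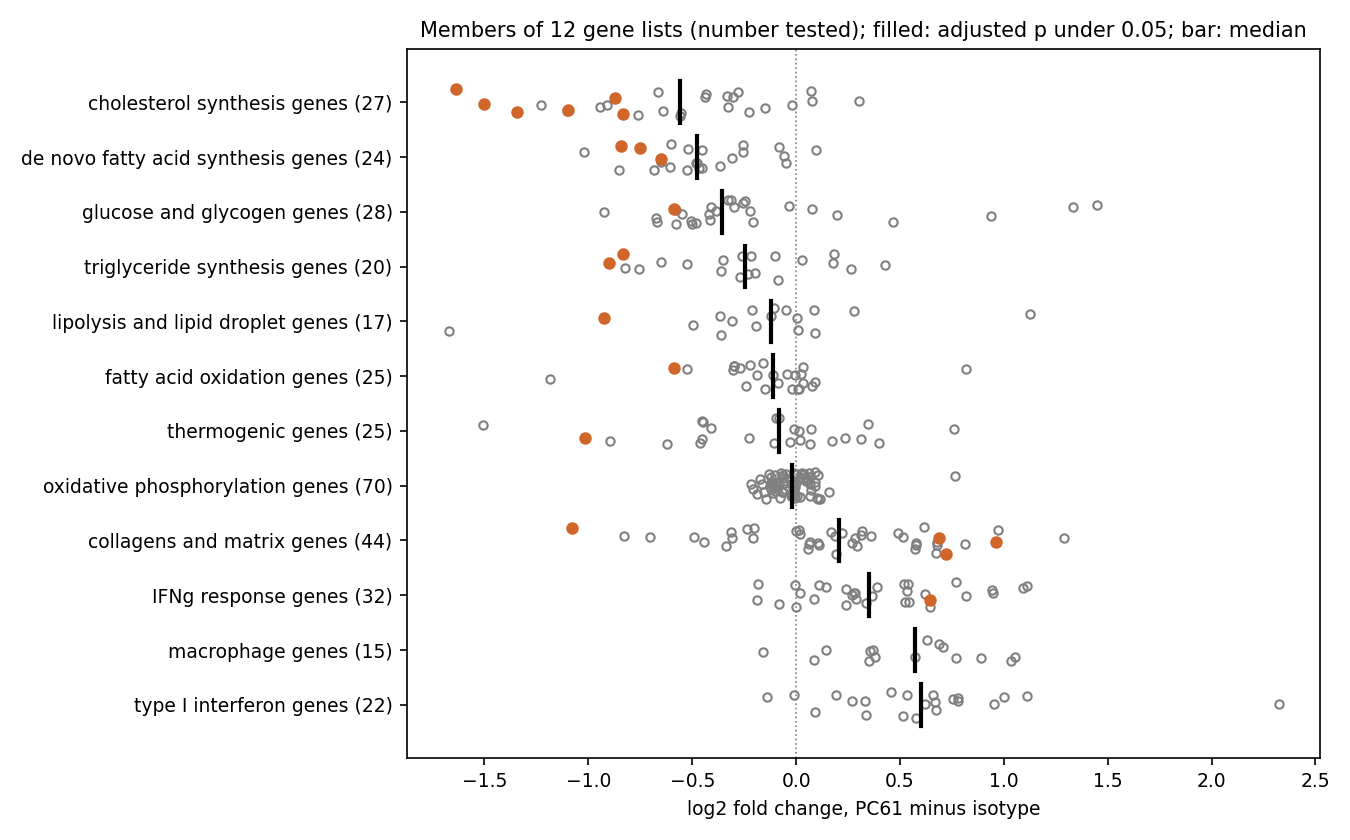
Log2 fold change of PC61 over isotype (horizontal axis) for the tested members of 12 gene lists, with the number tested in brackets, members past an adjusted p of 0.05 filled and the list median as a bar. Medians run from -0.56 for cholesterol synthesis to 0.60 for type I interferon genes.

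The heat-producing machinery was measured with the same libraries. Ucp1 (chromosome 8, 83290352 to 83298452) was at 12520, 7299 and 6051 CPM with isotype and at 4017, 5437 and 4466 CPM with PC61. All PC61 libraries were below all isotype libraries, and isotype replicate 1 lay far above the other isotype libraries. The log2 fold change was -0.89 ± 0.32 and did not pass (edgeR adjusted p = 0.424). Of 25 thermogenic genes tested, 1 fell (0.486% of all genes), Acot11, an acyl-CoA thioesterase of brown fat. It was at 1105, 940 and 1035 CPM against 407, 508 and 608 CPM and fell by 1.02 ± 0.14 (adjusted p = 0.00294). The list median was -0.08, and the lipid droplet protein gene Cidea had a log2 fold change of -0.11 ± 0.09 (adjusted p = 0.749).

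Oxidative phosphorylation genes gave 0 calls among 70 tested, against 0.651% of all genes, and a median of -0.02. At an unadjusted p under 0.05 in edgeR 0 of the 70 passed, against 10.8% of all genes. Fatty acid oxidation genes gave 1 call among 25, against 0.486% of all genes called lower. It was Acot2, a mitochondrial thioesterase that fell by 0.59 ± 0.12 (adjusted p = 0.0407). Slc25a44, the mitochondrial carrier of branched-chain amino acids, was the single call among 18 genes of their catabolism (0.486% of all genes). It fell by 0.62 ± 0.12 (adjusted p = 0.0289). Acot2 lost its call without any 1 library (adjusted p from 0.0766 to 0.238), and Slc25a44 lost it without isotype replicate 2 (0.154) or 3 (0.108) or PC61 replicate 1 (0.22) or 3 (0.0921).

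Further genes lower after PC61 belonged to none of these lists. Hephl1 (chromosome 9, 15051841 to 15112108), which encodes a copper ferroxidase of the hephaestin family, was at 21.7, 15.2 and 15.1 CPM with isotype and 1.93, 3.44 and 1.61 CPM with PC61. It fell by 2.88 ± 0.36 (adjusted p = 0.00226). Its PC61 libraries held 11, 22 and 10 counts, against 124, 86 and 90 with isotype. Sbk1 (chromosome 7, 126272619 to 126295016), a serine/threonine kinase gene, was at 88.4, 130 and 119 CPM against 36.6, 43 and 52.4 CPM and fell by 1.35 ± 0.17 (adjusted p = 0.00226). Slc25a32, the mitochondrial folate carrier, was at 112, 147 and 122 CPM against 64.6, 54.4 and 61.6 CPM and fell by 1.08 ± 0.14 (adjusted p = 0.00226).

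Among the 19 genes that rose, Slc1a3 (chromosome 15, 8634124 to 8710764), a glutamate and aspartate transporter, was at 110, 94.6 and 107 CPM with isotype and at 197, 198 and 196 CPM with PC61. The 3 PC61 libraries were nearly identical, and Slc1a3 rose by 0.92 ± 0.11 (adjusted p = 0.00226). Hcar2 (chromosome 5, 123863570 to 123865499), the receptor for nicotinic acid and beta-hydroxybutyrate that restrains lipolysis in fat cells, was at 8.04, 8.15 and 6.88 CPM against 27.3, 22.5 and 29.8 CPM. It rose by 1.78 ± 0.23 (adjusted p = 0.00236). The neighboring lactate receptor Hcar1 was at 41.1 ± 14.2 against 90.0 ± 20.6 CPM (1.13 ± 0.25, adjusted p = 0.0961). Ivns1abp, a kelch-domain protein gene, was at 155, 167 and 173 CPM against 334, 271 and 324 CPM and rose by 0.91 ± 0.12 (adjusted p = 0.00236).

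The collagen genes Col3a1, Col1a1 and Col1a2 rose. Col3a1 (chromosome 1, 45311538 to 45349706) was at 363, 250 and 269 CPM with isotype and at 670, 480 and 565 CPM with PC61. The groups did not overlap, and replicate 1 was the highest in both. Col3a1 rose by 0.96 ± 0.16 (adjusted p = 0.0153). Col1a1 was at 102, 70.3 and 91.1 CPM against 148, 138 and 148 CPM and rose by 0.72 ± 0.14 (adjusted p = 0.0289). Col1a2 was at 92.4, 83.3 and 74.5 CPM against 144, 113 and 147 CPM and rose by 0.69 ± 0.14 (adjusted p = 0.0354). These encode the chains of collagens type III and type I, the main fibers of connective tissue.

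Over the list of collagen and matrix genes, 3 of 44 rose (0.165% of all genes) and 1 fell (0.486%). The 1 that fell was Col27a1, another fibrillar collagen gene, by 1.08 ± 0.23 (adjusted p = 0.0478). With no adjustment 11 were higher and 2 lower, against 4.94% and 5.89% of all genes. The median was 0.20. The collagen calls were lost without isotype replicate 2, isotype replicate 3, PC61 replicate 1 or PC61 replicate 3, at adjusted p of 0.089, 0.0908, 0.125 and 0.0795 for Col3a1, 0.15, 0.102, 0.217 and 0.097 for Col1a1 and 0.156, 0.176, 0.27 and 0.135 for Col1a2. Col1a1 also lost its call without PC61 replicate 2 (0.0678), and Col27a1 lost it without any 1 library (0.0645 to 0.193).

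Interferon and macrophage genes lay somewhat higher, mostly short of the threshold. Of 32 tested IFNg (interferon gamma) response genes, 1 rose (0.165% of all genes), Cd274, which encodes the checkpoint ligand PD-L1. It was at 66.6, 68.6 and 64.9 CPM with isotype and at 106, 89.1 and 117 CPM with PC61, and rose by 0.64 ± 0.13 (adjusted p = 0.044). Leaving out any library but PC61 replicate 2 ended this call, with 0.269 as the highest adjusted p. With no adjustment 11 of the 32 were higher and 0 lower, against 4.94% and 5.89% of all genes, and the median was 0.35. The antigen peptide transporter Tap1 was at 15.4 ± 4.14 against 29.6 ± 5.47 CPM (0.94 ± 0.24, adjusted p = 0.104), while Irf1, a central IFNg factor, was at 33.8 ± 6.60 against 33.7 ± 6.12 CPM (adjusted p = 0.996).

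Type I interferon genes gave 0 calls among 22 tested in edgeR, 9 higher and 0 lower with no adjustment (4.94% and 5.89% of all genes), and a median of 0.60. The antiviral gene Rsad2 was at 13.6, 27.1 and 24.2 CPM with isotype and 69.5, 34.7 and 36.5 CPM with PC61 (1.11 ± 0.33, adjusted p = 0.239). Irf7, the factor that amplifies the type I response, was at 7.51, 8.86 and 10.4 CPM against 15.6, 14.2 and 16.2 CPM (0.78 ± 0.26, adjusted p = 0.241). The groups were apart for both genes. Macrophage genes gave 0 calls among 15 tested, 4 higher and 0 lower with no adjustment (4.94% and 5.89% of all genes), and a median of 0.57.

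Summed over the 22 macrophage genes in the table, the isotype libraries held 168, 123 and 130 CPM and the PC61 libraries 221, 181 and 184 CPM. None was at 0 in all 6 libraries, and Lyz2 made up 30.5% of the sum. The type I interferon sum ran from 551 to 776 CPM with isotype and from 941 to 1213 CPM with PC61. For the IFNg list the sums ran from 1869 to 2366 against 2386 to 3019 CPM, and for red cell genes from 495 to 679 against 770 to 961 CPM. Each of these 4 sums had groups that did not overlap and an exact two-sided permutation p of 0.1. With 3 against 3 samples this is the smallest p, and groups that do not overlap always give it. The monocyte and neutrophil sum gave the same. The B cell and dendritic cell sums overlapped (exact permutation p = 0.3 each). So did the type 2 immune and muscle sums (exact permutation p = 0.7 and 0.5). T and NK cell sums overlapped, at 11.4 to 15.4 against 13.1 to 18.9 CPM (exact permutation p = 0.3). Treg list sums overlapped too, at 366 to 549 against 446 to 478 CPM (exact permutation p = 0.4), but 86.1% of that sum was Nrp1, which other cells of the tissue also express. The part of these cells or of red cell RNA in the gene differences was not tested.

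**Figure D4:**
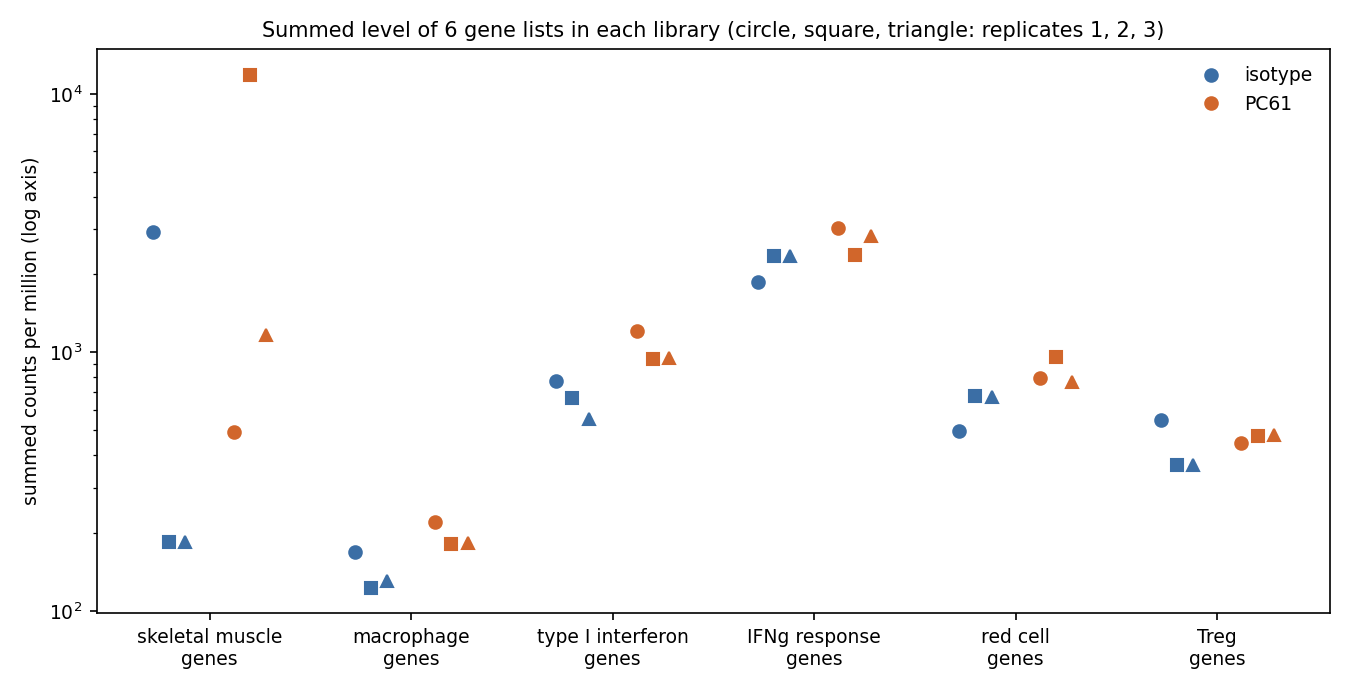
Summed CPM (vertical log axis) of 6 gene lists in each isotype (blue) and PC61 (orange) library. Muscle sums range from 184 to 11830 with overlapping groups, and the macrophage, interferon and red cell sums do not overlap.

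The PC61 effect was then set against the effect of toxin in DTR+ mice, which asks how CD25 antibody and removal of Foxp3-expressing cells compare in the same tissue. The comparisons share no library, but they differ in strain, controls and agent. With the 4 groups of PC61 and D4 in 1 fit, 122 of 12842 genes had an effect that differed at an adjusted p under 0.05 (0.95%), 19 with a higher PC61 effect and 103 with a lower one (0.802%). The DTR+ against DTR- effect in D4 itself called 1784 genes in that fit (13.9%), 7.47% of genes higher and 6.42% lower. The count of 122 ran from 53, without PC61 replicate 1, to 269, without DTR+ D4 replicate 1. It was 57 without PC61 replicate 3, 61, 62 and 62 without isotype replicate 3, DTR- D4 replicate 4 and DTR+ D4 replicate 4, 68, 70 and 73 without DTR+ D4 replicates 2 and 3 and isotype replicate 2, 80 without DTR- D4 replicate 1 and 198 without DTR- D4 replicate 3.

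Interferon response genes had smaller effects with PC61 than in D4. Of 39 IFNg response genes tested, 19 had a lower effect of PC61 and 0 a higher one, against 0.802% and 0.148% of all genes. The median log2 effect was 0.33 with PC61 and 2.57 in D4, where 38 of the 39 rose, against 7.47% of all genes. For Nlrc5, which switches on MHC class I genes, the log2 difference, PC61 effect minus D4 effect, was -2.75 ± 0.33 (edgeR adjusted p = 0.000379), and for the GTPase gene Ifi47 it was -3.24 ± 0.40 (adjusted p = 0.000379). Tap2, a peptide transporter gene, differed by -1.32 ± 0.17 (adjusted p = 0.000395). These held in all 14 fits with a library left out. Of 26 type I interferon genes, 5 had a lower PC61 effect, against 0.802% of all genes, with medians of 0.59 and 2.20. Among the 5 was Irf7 at -2.24 ± 0.34 (adjusted p = 0.00232).

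Lipid synthesis genes had no called difference from D4, which does not show that the effects were equal. On simulated data this fit recovered 26.4% of differences of 1 on the log2 scale and 56% of those of 2. Over cholesterol synthesis the medians were -0.57 with PC61 and -0.47 in D4, with 0 of 27 differences called (0.95% of all genes). Cyp51 had a D4 effect of -0.35 ± 0.14 and a difference of -0.76 ± 0.21 (adjusted p = 0.0793). Sc5d fell in D4 as well, by 0.89 ± 0.21 (adjusted p = 0.0123), and its difference was -0.46 ± 0.32 (adjusted p = 0.603).

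Fatty acid synthesis genes had medians of -0.49 with PC61 and -1.001 in D4, with 0 of 24 differences called (0.95% of all genes). Agpat2 fell in D4 by 1.34 ± 0.10 (adjusted p = 1.41e-07), and the difference was 0.43 ± 0.16 (adjusted p = 0.195). Oxidative phosphorylation genes had medians of -0.03 and -0.37. In D4 62 of the 70 fell, against 6.42% of all genes. For 1 of the 70 a difference was called, near the 0.95% of all genes. Hcar2 rose in D4 by 0.71 ± 0.17 (adjusted p = 0.00712), with a difference of 1.07 ± 0.27 (adjusted p = 0.055).

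Of the 75 genes called with PC61, 64 had the same sign in D4 and 39 were called there with that sign. Of the 56 lower genes, 32 were called lower in D4, against 6.42% of all genes. Of the 19 higher genes, 7 were called higher in D4, against 7.47%. The share of all genes that agree in sign was not computed. A difference was called for 3 of the 75, against 0.95% of all genes. The 75 were picked by their PC61 effect in libraries that also enter this difference, so a raised share is partly built in. Nabp1, a single-strand DNA binding protein gene, was at 210, 169 and 150 CPM with isotype and 85.6, 90.9 and 85.9 CPM with PC61 and fell by 1.01 ± 0.13 (adjusted p = 0.00236), against a log2 value of 0.19 ± 0.17 in D4 (adjusted p = 0.551). Cyp4b1, a cytochrome P450 gene, was at 90.3, 72.1 and 48.7 against 35.2, 39.8 and 33.1 CPM and fell by 0.96 ± 0.20 (adjusted p = 0.0461), against a positive log2 value of 0.50 ± 0.17 in D4 (adjusted p = 0.0609). Acsm3, a mitochondrial acyl-CoA synthetase gene, was at 71.8, 84 and 101 against 160, 136 and 148 CPM and rose by 0.79 ± 0.14 (adjusted p = 0.0186), against a log2 value of 0.01 ± 0.12 in D4 (adjusted p = 0.985). The differences were -1.20 ± 0.25 (adjusted p = 0.0269), -1.47 ± 0.26 (adjusted p = 0.00986) and 0.77 ± 0.19 (adjusted p = 0.0478) in that order. The Cyp4b1 difference was called in all 14 fits with a library left out, that of Nabp1 in 7 (highest adjusted p 0.0776) and that of Acsm3 in 3 (highest 0.106). The PC61 effect itself lost its call for Cyp4b1 without any library but isotype replicate 3 (0.0734 to 0.289), for Acsm3 without isotype replicate 2 (0.0979) or PC61 replicate 1 (0.161) or 3 (0.0623), and for Nabp1 without PC61 replicate 1 (0.0599).

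Against D3, 15 of 12434 genes differed (0.121%), 1 higher (0.00804%) and 14 lower (0.113%), and the DTR+ against DTR- effect in D3 itself called 369 genes (2.97%). Irf1 differed by -1.81 ± 0.24 (adjusted p = 0.00259) and the GTPase gene Igtp by -1.60 ± 0.25 (adjusted p = 0.00976), each with the PC61 effect below the D3 effect. The 1 gene with a higher effect was BB365896, an antisense transcript at 3.32, 6.55 and 3.02 CPM with isotype and 16.3, 13 and 12.7 CPM with PC61, with a PC61 effect of 1.70 ± 0.35 (adjusted p = 0.0407), a D3 effect of -2.54 ± 0.41 and a difference of 4.23 ± 0.57 (adjusted p = 0.00259). It overlaps Fam13a, which had 11820 counts over the 6 libraries against 329, so its reads are uncertain. The PC61 effect of BB365896 alone kept its call only without isotype replicate 2 (highest adjusted p 0.275). Of the 75 called genes 70 had the same sign in D3 and 26 were called there with that sign. Over all genes D3 called 2.97% in either direction, and the share that agree in sign was not computed. The count of 15 fell to 7 without isotype replicate 1 or 2, DTR- D3 replicate 2, or DTR+ D3 replicate 1 or 2, and to 9 without PC61 replicate 1.

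**Figure D5:**
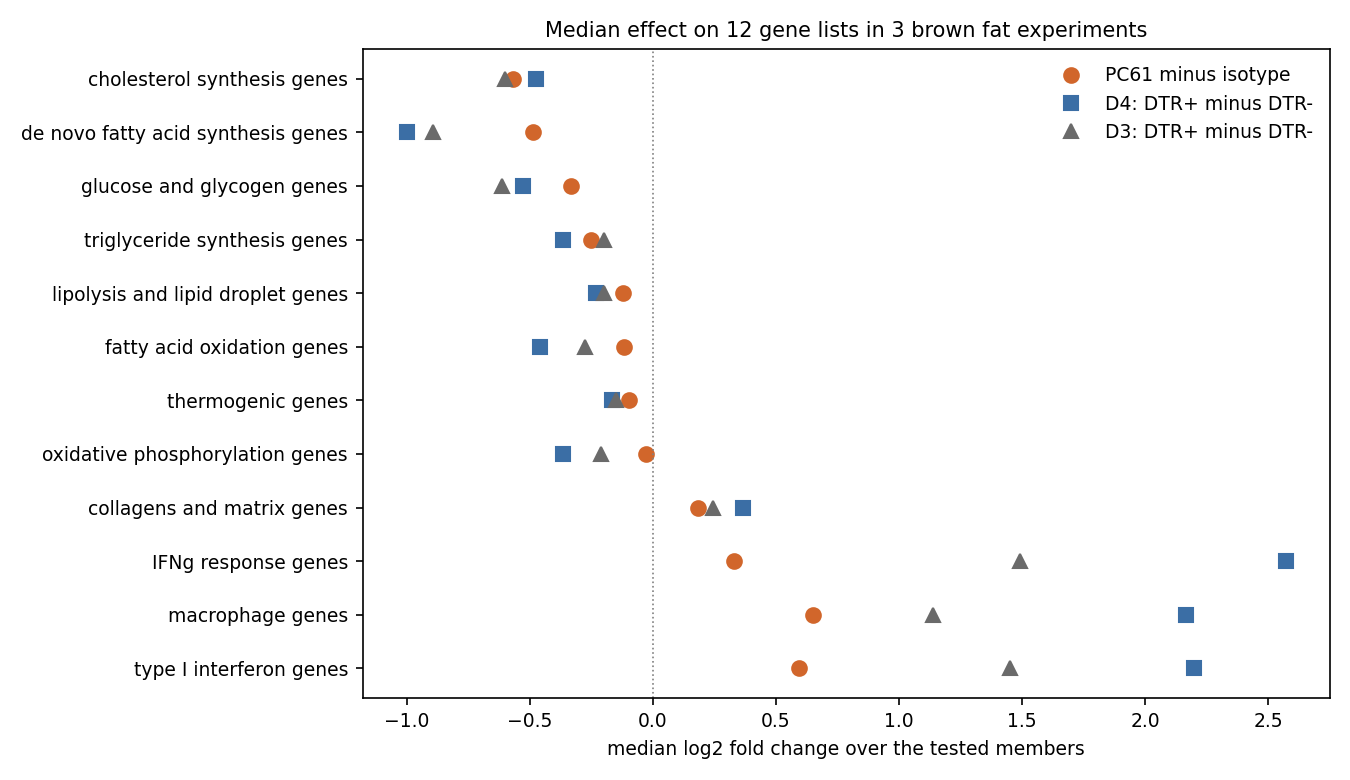
Median log2 fold change over the tested members of 12 gene lists (horizontal axis) for PC61 over isotype (circles), D4 (squares) and D3 (triangles), where D4 and D3 are DTR+ over DTR- after toxin. Medians are close for cholesterol synthesis, at -0.57, -0.47 and -0.60, and apart for IFNg response genes, at 0.33, 2.57 and 1.49.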

How the data were processed

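RNA was sequenced from whole BAT, and the authors deposited 1 table of raw read counts per gene for all 60 libraries (55011 genes). The submitters' processing notes name STAR 2.7.3a, featureCounts and the mouse build mm10; the strand setting is not given in the sources used here. From these counts, genes passing filterByExpr were tested with edgeR 4.0.16 (TMM, robust quasi-likelihood, R 4.3.3) with Benjamini-Hochberg adjustment over all genes tested and a threshold of 0.05. PC61 and isotype were fitted alone, and interactions with D4 or D3 in fits of 4 groups. CPM are per library total after TMM. List sums were compared by exact two-sided permutation tests. DESeq2 1.42.0, other filters and scalings, a replicate block, a fit of all BAT groups and fits without each library were alternatives. The labels do not say that equal replicate numbers mark a pair. Correlations of same-numbered deviations were -0.18, -0.22 and 0.13, which cannot exclude one.

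Tested on simulated data for PC61 against isotype (11513 genes, 200 changed), the fit recovered 40.2% of genes changed by 1 on the log2 scale and 75.7% of those changed by 2, with 7.87% of calls false. The fits of differences recovered 26.4% and 56% for D4 and 13% and 61.2% for D3. Gene positions are from GENCODE M21 (175 of 179 names matched). The comparison, its members and the 41 gene lists were chosen with earlier results of these data known. Genes named are Foxp3, Il2ra, Ucp1, Sc5d, Col3a1 and Agpat2, up to 15 called genes per direction by size of change and 15 by p with non-overlapping ranges and at least 5 CPM, and up to 4 called members per list. Genes named as not passing, Nsdhl and the genes named for D4 and D3 outside this rule were chosen after their values were seen. Some genes of the lists are counted but not reported here by name.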

Additional observations from a re-analysis of the deposited data

Results flagged for a closer look

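These effects differed between experiments by the test of the difference itself (edgeR interaction, Benjamini-Hochberg adjusted), given as the PC61 effect minus the DTR+ against DTR- effect on the log2 scale. Against D4 the PC61 effect was lower for interferon-related genes: Igtp (-3.65), Ifi47 (-3.24), Nlrc5 (-2.75), Irf1 (-2.66), Irf7 (-2.24) and Tap2 (-1.32). These are differences between effects and do not show a fall with PC61 itself. Igtp had an adjusted p of 0.0038 and Irf1 one of 0.00232. Outside that group, the PC61 effect was lower for Cyp4b1 (-1.47) and Nabp1 (-1.20) and higher for Acsm3 (0.77). Against D3, the PC61 effect was lower for Irf1 (-1.81) and Igtp (-1.60) and higher for the antisense transcript BB365896 (4.23). The experiments differ in strain, agent and control group, which cannot be told apart from the difference.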

How the results depend on the processing

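The numbers of calls moved between runs. All 75 genes called with PC61 kept their direction in every alternative run. Their group ranges did not overlap, so leaving out libraries could hardly have reversed a direction. The count of 75 became 219 with DESeq2, 347 with no filter on low counts, 7 with all BAT groups in 1 fit, 159 with a muscle score as covariate, 176 without both libraries highest in muscle transcripts (chosen after seeing the data), and 11 to 100 with 1 library left out. The 6 lower cholesterol genes became 11 with DESeq2, 14 with no filter, 2 with all BAT groups and 3 to 8 with 1 library left out. The 3 higher collagen and matrix genes became 7 with no filter, 0 with all BAT groups and 0 to 3 with 1 library left out. The 3 lower fatty acid synthesis genes became 11 with DESeq2, 14 with no filter, 0 with all BAT groups, 6 with at least 10 counts in every library, 6 without both muscle-high libraries and 0 to 8 with 1 library left out. The 122 differences from D4 became 375 with DESeq2, 455 with no filter and 53 to 269 with 1 library left out. The 15 differences from D3 became 42 with DESeq2, 94 with no filter and 7 to 15 with 1 library left out. With the replicate number as a block the counts were 96 for PC61 (62 of the 75 kept) and 8 for fatty acid synthesis. They were 182 for D4 and 8 for D3. The labels do not say that equal numbers mark a pair. Acta1, at a log2 fold change of 2.43, ran from -0.46, without PC61 replicate 2, to 9.05, without isotype replicate 1. The causes of these shifts were not tested. At the depth of these libraries, genes such as Foxp3 and Il2ra had too few counts to be tested.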

Other observations

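Genes of interleukin-2 receptor signalling summed to 335, 305 and 342 CPM with isotype and 483, 376 and 548 CPM with PC61. By edgeR 0 of 9 tested members were called and 2 were higher at an unadjusted p under 0.05 (4.94% of all genes). Cish carried most of the difference: without it the sums were 308, 265 and 313 CPM with isotype and 314, 363 and 327 CPM with PC61. Cish, a feedback inhibitor of cytokine signalling, was at 26.9, 40.2 and 28.9 CPM with isotype and at 169, 13.4 and 221 CPM with PC61. PC61 replicate 2, the library highest in muscle transcripts, was the lowest of all 6, and the other PC61 libraries were the highest. The log2 fold change was 2.07 (adjusted p = 0.609), and over the fits with 1 library left out the adjusted p ran from 3.13e-05 to 0.828. Socs2, a related inhibitor, had a log2 fold change of 1.28 (adjusted p = 0.129).

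Schwann and neuronal genes summed to 228, 229 and 254 CPM with isotype and 203, 197 and 193 CPM with PC61. Of 8 tested members 0 were called and 2 were lower at an unadjusted p under 0.05 (5.89% of all genes). Their median log2 fold change was -0.11, with 3 members above 0 and 5 below. Fibroblast and progenitor genes summed to 1722, 1431 and 1279 CPM with isotype and 1816, 1890 and 1936 CPM with PC61. Of 17 tested 0 were called and 4 were higher at an unadjusted p under 0.05 (4.94% of all genes). The median log2 fold change of these 17 was 0.22, with 9 members above 0 and 8 below. In both lists the sums of the groups did not overlap. Endothelial genes had 0 of 24 called, with 1 higher and 5 lower at an unadjusted p under 0.05 (4.94% and 5.89% of all genes).

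Among single genes, Adamtsl3, a matrix protein of the ADAMTS-like family, was at 3.32, 4.43 and 5.03 CPM with isotype and 13.1, 13.0 and 18.5 CPM with PC61. It rose by 1.80 ± 0.31 (edgeR adjusted p = 0.0181), a call kept without isotype replicate 1 (0.0342) or PC61 replicate 2 (0.0245) and lost without any other library (0.0537 to 0.0925).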
